A study of Mus musculus with 18 samples.

Results

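The cytosolic ribosomal proteins are the structural proteins of the ribosome outside the mitochondria, and their RNA was followed here in 3 glands of castrated male mice with and without androgen. Members were chosen by gene symbol alone, as every probe whose symbol is that of a large subunit protein (Rpl), a small subunit protein (Rps) or a stalk protein (Rplp), with the S6 kinases left out. The rule found 58 of the 10500 probes, each for a different gene: 36 of the large subunit, 19 of the small subunit and 3 of the stalk. All 58 passed the filter on dim probes, against 7463 of the 10500 probes on the array. The groups were lacrimal, meibomian and submandibular glands of orchiectomised male BALB/c mice that carried testosterone pellets for 21 days, and the same glands of orchiectomised males that carried placebo pellets for 21 days. Every animal in both arms had therefore lost its testes, and the age of the animals and the hormone dose are not given in the sources used here. Each of the 6 groups held 3 pools (A, B and C), each pool held 10 glands from 5 animals per the labels, and each pool was hybridised to 1 of 18 arrays of 1 colour. The labels also state 4 animals per sex and experiment, so the number of animals behind a pool is not settled.

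A ribosome joins a small subunit, which reads the messenger RNA, to a large subunit, which forms the peptide bond and lets the new chain out through a tunnel. Cells make the proteins of both subunits in matched amounts, from genes scattered over the genome, and excess protein is degraded. Their messenger RNAs share a pyrimidine tract at the 5′ end, through which growth signals control their translation, and they are abundant in cells that secrete protein, such as gland acini. The 58 genes lie on 17 chromosomes of the mouse build GRCm38.p6 in the RefSeq table, and for 53 of them the accession behind the probe is one of that table's transcripts. Ribosomal protein genes have many processed pseudogenes and some near-identical paralogs, so signal from such copies cannot be told apart from that of the named gene.

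The labelled glands carried their defining transcripts. The 7 probes of meibomian lipid genes (such as Elovl3, a fatty acid elongase of sebaceous tissue) summed to between 421.5 and 543 in meibomian testosterone pools and to between 350.5 and 366 in meibomian placebo pools, and to at most 52.5 in the other glands. The 4 probes of granular duct and submandibular products summed to between 810.5 and 899 in submandibular testosterone pools and between 687 and 784 in submandibular placebo pools, against at most 24.4 elsewhere. The 5 lacrimal probes, of which lactoperoxidase, carbonic anhydrase 6 and a secretoglobin were also bright in the submandibular gland, summed to between 1227 and 1775 in lacrimal testosterone pools and between 2133 and 2239 in lacrimal placebo pools. In submandibular pools they summed to between 991 and 1237 with testosterone and between 1073 and 1162 with placebo. The lacrimal list therefore did not set every lacrimal testosterone pool apart from the submandibular pools. In meibomian pools its sum was at most 113.9. Meibomian pools also held skeletal muscle RNA, with 8 muscle probes summing to between 161 and 211, against at most 10.5 in the other glands. Intensities are on a linear scale with an array median between 0.929 and 0.953, so a value of 100 is about that many times the level of the middle probe. These are bulk samples, in which fewer cells of a type and less RNA per cell cannot be told apart.

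The ribosomal protein probes were among the brightest on every array. The median member stood between percentiles 98.5 and 99.3 of its array, and between 51 and 53 of the 58 members were in the top decile. Their summed intensity was 8.24, 8.01 and 8.08% of the array's sum in lacrimal testosterone pools, against 10.4, 10.3 and 10.6% in lacrimal placebo pools, with no overlap. In the meibomian gland the share was 10.4, 9.69 and 9.01% with testosterone and 8.85, 9.01 and 8.88% with placebo, and the lowest testosterone pool was level with the highest placebo pool. In the submandibular gland it was 7.33, 6.86 and 7.29% with testosterone and 8.01, 8.11 and 8.07% with placebo, with no overlap. The means were 8.11 ± 0.12% with testosterone and 10.4 ± 0.18% with placebo in the lacrimal gland (SD, n = 3 each). Meibomian means were 9.71 ± 0.71% with testosterone and 8.91 ± 0.083% with placebo, and submandibular means were 7.16 ± 0.26% with testosterone and 8.07 ± 0.052% with placebo (SD, n = 3 each). Over the 53 members with a value in every pool and no pool under 10% of its group's highest, the lacrimal share was 7.16 ± 0.026% with testosterone and 9.04 ± 0.18% with placebo (SD, n = 3 each). The submandibular share of those 53 was 6.85, 6.06 and 6.77% with testosterone against 6.98, 7.22 and 7.14% with placebo, a difference of means of -0.56 percentage points in place of -0.90. A share also depends on the summed intensity of all other probes. In the submandibular gland the median member intensity averaged 94.7 ± 1.53 with testosterone and 95.5 ± 1.75 with placebo (SD, n = 3 each). That median was 117 ± 4.56 with testosterone and 169 ± 14.4 with placebo in the lacrimal gland. Meibomian values were 138 ± 24.1 with testosterone and 110 ± 1.87 with placebo. While the submandibular share was lower with testosterone, some markers of other cell types were higher there. Fibroblast probes summed to between 73.1 and 80.0 with testosterone and between 49.9 and 57.6 with placebo (4 of 6 called higher, none lower). Macrophage probes summed to between 59.8 and 69.7 with testosterone and between 35.9 and 40.9 with placebo (4 of 6 tested higher, none lower). Skeletal muscle probes there summed to between 3.14 and 3.74 with testosterone and between 4.42 and 10.5 with placebo (3 of 8 lower, none higher). None of 5 tested B and plasma cell probes or 5 tested T cell probes was called. Of all tested probes 8.54% were called higher and 5.25% lower in this gland. The part of these cell types in the share was not tested. No test was made of a sum over the members.

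**Figure D1:**
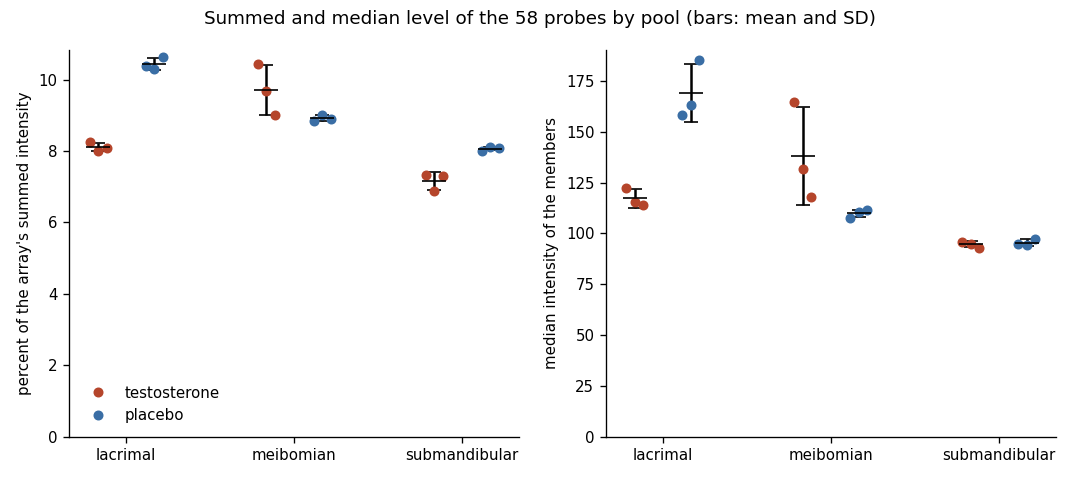
Left, summed intensity of the 58 ribosomal protein probes as a percent of the array's summed intensity. Right, their median intensity on the array scale. Points are the 3 pools of each group, testosterone left of placebo within each gland, and bars give the mean and SD; lacrimal testosterone pools lie between 8.01 and 8.24%, below the placebo pools at 10.3 to 10.6%.

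Testosterone against placebo in the lacrimal gland asks what androgen does to these transcripts in the gland that makes the watery part of tears. Ribosomal protein RNA was lower across both subunits: 37 of 58 members (63.8%) were called lower and 2 higher, where 14.8% of all tested probes were called lower and 13.3% higher (limma, Benjamini-Hochberg adjusted p under 0.05 over 7463 probes). The median change was -0.58 on the log2 scale, with an interquartile range from -0.72 to -0.40, against a median of -0.07 over all tested probes. Changes are differences of group means of log2(intensity + 0.174) and understate those of dim probes. They ran from -1.64 for Rpl26 to 0.60 for Rpl8, and 54 of 58 were below 0. Of the 57 members with all 6 values, 46 had every testosterone pool below every placebo pool and 2 had every testosterone pool above (21.4% and 18.2% of all probes with all values). The testosterone pools were not level with each other: pool A lay above the group mean in 52 members and pool C in 6.

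**Figure D2:**
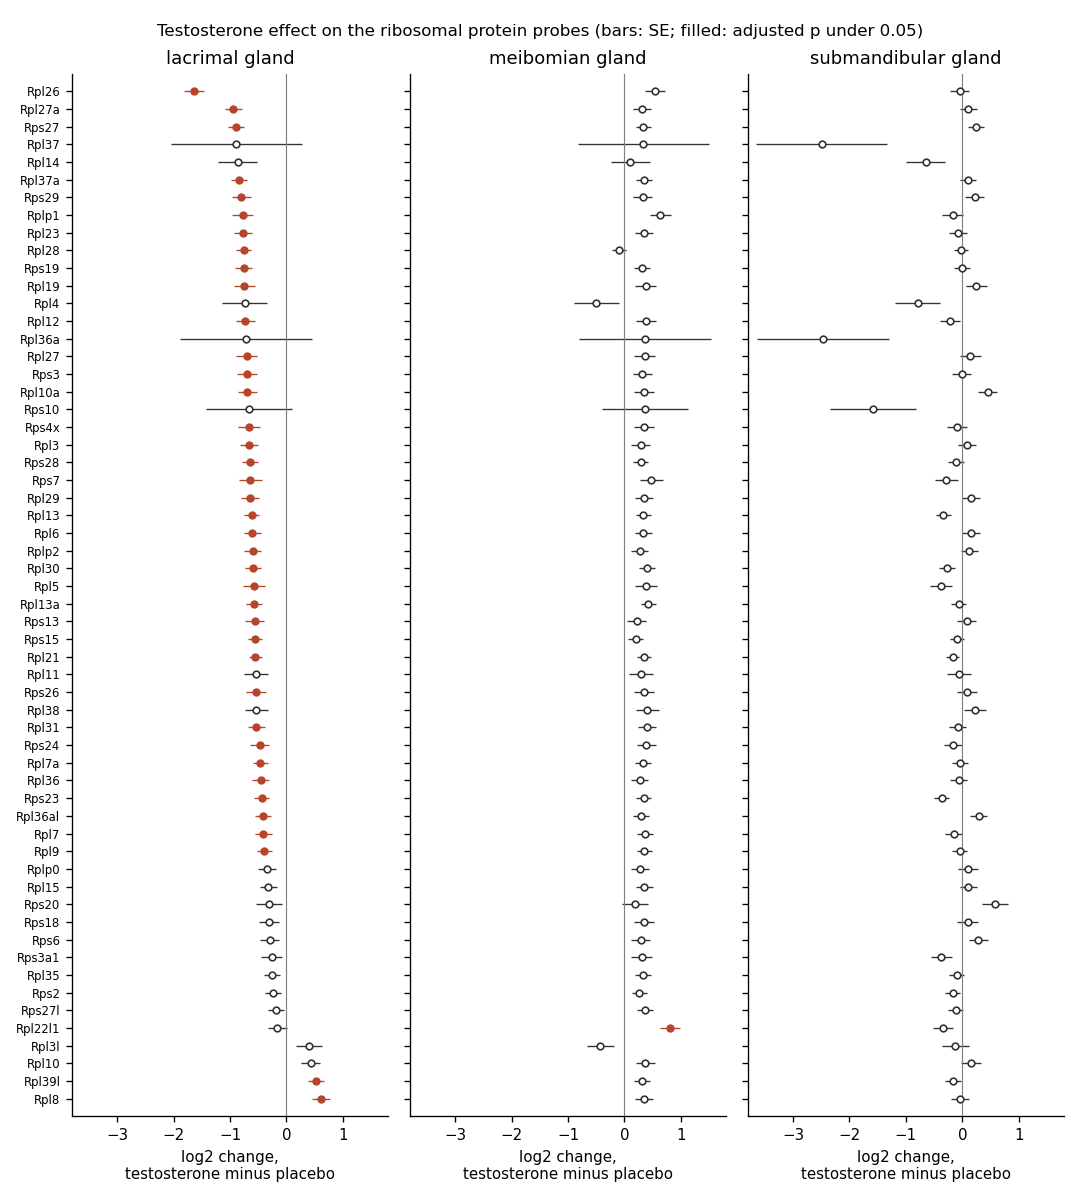
Log2 change of each member, testosterone minus placebo, in the 3 glands, with members ordered by their lacrimal change. Points are the fitted change, bars the SE, and filled points have an adjusted p under 0.05. The lacrimal column lies mostly near its median of -0.58, the meibomian column near 0.34, and the submandibular column near -0.06, with long bars for 3 probes that had 1 submandibular pool far below the others.

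Within the large subunit 23 of 36 members fell and 2 rose, with a median change of -0.59. Rpl26, a protein at the rim of the exit tunnel that in human cells also binds the p53 messenger RNA, had 10.1, 10.6 and 8.54 in testosterone pools, against 30.2, 31.4 and 30.1 in placebo pools. Every testosterone pool was below 11 and every placebo pool above 30, and the level fell by 1.64 ± 0.18 (log2 ± SE, limma adjusted p = 2.07e-06), to 31.8% of the placebo mean. Rpl27a, a large subunit protein, had 60.1, 49.8 and 47.9 with testosterone and 98.5, 101 and 102 with placebo. The groups were far apart, and its change was -0.94 ± 0.15 (adjusted p = 0.000194). Rpl37a, a zinc-binding protein of the large subunit, had 246, 192 and 188 with testosterone and 377, 367 and 365 with placebo. It fell by 0.84 ± 0.14 (adjusted p = 0.000217), with testosterone pool A the highest of the 3 and still below all placebo pools. Rpl23, which lies at the interface of the subunits and can bind the p53 regulator Mdm2, had 250.5, 225 and 193 with testosterone and 403, 365 and 364 with placebo. Its groups did not overlap and it fell by 0.77 ± 0.16 (adjusted p = 0.00156). Rpl28, a large subunit protein that budding yeast lacks, had 46.5, 32.8 and 33.3 with testosterone and 67.2, 65 and 56.7 with placebo, again with no overlap and a fall of 0.76 ± 0.13 (adjusted p = 0.000252).

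The other large subunit members that were called lower changed less. Rpl19, Rpl12, Rpl27, Rpl10a, Rpl3, Rpl29, Rpl13 and Rpl6 fell by between 0.61 and 0.75 on the log2 scale. Rpl30, Rpl5, Rpl13a, Rpl21, Rpl31, Rpl7a, Rpl36, Rpl36al, Rpl7 and Rpl9 fell by between 0.40 and 0.59. The smallest falls were those of Rpl9, Rpl7 and Rpl36al, with adjusted p = 0.0349, 0.0484 and 0.042 (limma), and these calls were lost under 7 of 31 alternatives for Rpl9, 24 of 31 for Rpl7 and 15 of 32 for Rpl36al. Rpl35, another protein of the tunnel rim, had 249, 226 and 226 with testosterone and 294, 283 and 261 with placebo; its change of -0.26 ± 0.14 was not called (limma adjusted p = 0.201), although the pools did not overlap. Of the 4 probes for tunnel rim proteins, Rpl19, Rpl26 and Rpl31 were called lower.

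Members of the small subunit moved in the same direction: 12 of 19 fell, none was called higher, and the median change was -0.56. Rps27, a zinc-binding protein of the small subunit, had 92.7, 89.4 and 96 with testosterone and 156, 158 and 208 with placebo. Testosterone pools lay within 7 units of each other while placebo pool C was the highest, and it fell by 0.89 ± 0.14 (limma adjusted p = 0.000103). Rps29, a small zinc-binding protein of the subunit's head, had 168, 141 and 123 with testosterone and 234, 263 and 251 with placebo, and fell by 0.80 ± 0.16 (adjusted p = 0.00148). Rps19, the gene most often mutated in human Diamond-Blackfan anaemia, had 113, 93.7 and 112 with testosterone and 163, 185 and 189.7 with placebo, and fell by 0.76 ± 0.15 (adjusted p = 0.000851). In both the groups were apart. Rps3, Rps4x, Rps28, Rps7, Rps13, Rps15, Rps26, Rps24 and Rps23 were also called lower, by between 0.44 and 0.70. The Rps4x call rested on 2 testosterone values, since pool B gave none. Not called were Rps10, Rps20, Rps18, Rps6, Rps3a1, Rps2 and Rps27l, whose changes ran from -0.67 to -0.18. Rps6, the small subunit protein that S6 kinases phosphorylate, had 172, 126 and 102 with testosterone and 146, 164 and 172 with placebo, and its highest testosterone pool exceeded every placebo pool. Of 15 members whose human genes are mutated in Diamond-Blackfan anaemia, 11 were called lower and none higher, near the 37 of 58 called lower over all members. Their median change was -0.64, against -0.58 over all members.

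The stalk is the arm of the large subunit that recruits elongation factors, with Rplp0 as its scaffold, dimers of Rplp1 and Rplp2 at its tip and Rpl12 at its base. Rplp1 had 2.19, 3.52 and 2.31 with testosterone and 5.57, 5.28 and 3.31 with placebo; its change was -0.78 ± 0.18 (limma adjusted p = 0.00476), although testosterone pool B was above placebo pool C. In all glands the Rplp1 probe was far dimmer than those of Rplp0, Rplp2 and Rpl12. Rplp2 had 151, 116 and 119 with testosterone and 189.9, 208 and 185 with placebo, with no overlap and a change of -0.60 ± 0.15 (adjusted p = 0.00703). Rpl12 had 251, 192 and 163 with testosterone and 327, 330.5 and 330.0 with placebo, and fell by 0.73 ± 0.17 (adjusted p = 0.00514). Rplp0, often used as a loading control in RNA measurements, had 306, 262 and 229.8 with testosterone and 281, 404 and 331 with placebo. Its groups overlapped and its change of -0.34 ± 0.16 was not called (adjusted p = 0.128). Rpl5 and Rpl11, which carry the 5S ribosomal RNA and can bind Mdm2, had like changes. Rpl5 had 174, 198 and 167 with testosterone and 236, 285 and 287 with placebo. Rpl11 had 109, 132 and 119 with testosterone and 153, 177 and 198 with placebo. Neither overlapped between groups, but Rpl5 was called (-0.58 ± 0.20, adjusted p = 0.0358) and Rpl11 was not (-0.54 ± 0.21, adjusted p = 0.0643).

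Some members went the other way or stayed within their spread. Rpl8, a large subunit protein next to the peptidyl transferase centre, had 87.4, 71.7 and 59 with testosterone and 51.1, 43.1 and 47.5 with placebo. All testosterone pools were above all placebo pools, and it rose by 0.60 ± 0.16 on the log2 scale, or 1.54-fold (limma adjusted p = 0.00891). Rpl39l, a paralog of Rpl39 best known from the male germ line of mice, had 1.32, 1.57 and 1.53 with testosterone and 0.956, 1.01 and 0.942 with placebo, a rise of 0.52 ± 0.14 (adjusted p = 0.0109). Rpl10, which joins the large subunit as one of its last proteins, had 417, 328 and 286 with testosterone and 292, 278 and 197 with placebo; testosterone pool C was just below placebo pool A, and the change of 0.43 ± 0.17 was not called (adjusted p = 0.0752). Of the 5 paralogs, Rpl39l rose and Rpl36al fell, while Rpl3l, Rpl22l1 and Rps27l were not called. Rpl36al had 187, 139 and 138 with testosterone and 195, 209 and 209 with placebo. Rps27l, a paralog of Rps27 that p53 induces, had 163, 139 and 141 with testosterone and 166, 155 and 183 with placebo, so its highest testosterone pool was above its lowest placebo pool, in contrast to Rps27. Rpl3l, the striated muscle paralog of Rpl3, had 0.605, 0.397 and 0.425 with testosterone and 0.398, 0.296 and 0.254 with placebo, below the array median in every pool. Rpl22l1 had 3.49, 3 and 2.54 with testosterone and 4.32, 2.91 and 3 with placebo, with overlap.

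**Figure D3:**
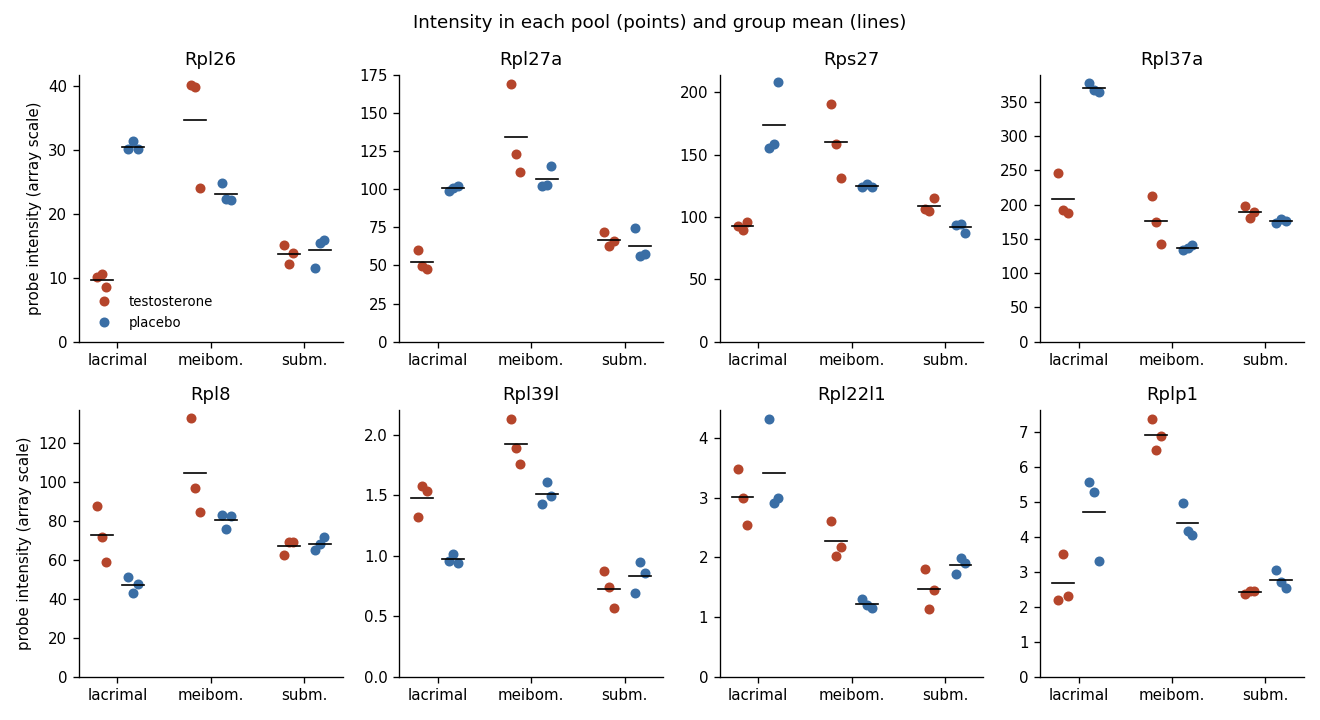
Intensity of 8 members in every pool, on the array scale from 0, with testosterone (left) and placebo (right) in each gland; lines are group means (n = 3). In the lacrimal gland Rpl26, Rpl27a, Rps27 and Rpl37a are lower with testosterone in every pool, and Rpl8 and Rpl39l are higher. Rpl22l1 is higher with testosterone in the meibomian gland.

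Of the members whose lacrimal testosterone pools were all lower but that were not called, 5 (Rpl37, Rpl36a, Rps10, Rpl14 and Rpl4) had a large SE in the fit over all glands. Rpl37 had 196, 169 and 144 with testosterone and 298, 323 and 319 with placebo, Rpl36a had 249.7, 198 and 167 with testosterone and 323, 319.8 and 358 with placebo, and Rps10 had 119, 99.4 and 89.4 with testosterone and 158, 163 and 165 with placebo. Each of these probes had 1 submandibular testosterone pool far below the rest, and the SE of the fit over all glands was 1.16, 1.17 and 0.76. Fitted on the 6 lacrimal arrays alone, their changes were -0.89 ± 0.16 for Rpl37, -0.72 ± 0.18 for Rpl36a and -0.67 ± 0.15 for Rps10 (limma adjusted p = 0.00242, 0.0141 and 0.00875). Rpl14 had 52.7, 45.2 and 44.3 with testosterone and 82.8, 92 and 84.5 with placebo, and Rpl4 had 108, 103 and 102 with testosterone and 148, 191 and 189 with placebo; both were likewise called lower in that fit (adjusted p = 0.00085 for Rpl14 and 0.00495 for Rpl4), as were Rpl11 and Rpl38. The lacrimal arrays alone gave 40 members lower and 2 higher, where 12.1% and 11.3% of all tested probes were called, and no longer called Rps23, Rpl36al, Rpl9 and Rpl7.

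The size of the lacrimal difference depended on how arrays were scaled. With all 18 arrays brought to 1 distribution by quantile normalisation, 18 members were lower and 4 higher, and the median change was -0.29; with each gland normalised by itself, 25 were lower and 3 higher, and the median was -0.32. Here and below, member counts under quantile normalisation stand without the share of all tested probes called under that setting. Rpl26, Rpl27a, Rps27, Rpl37a, Rps29, Rplp1, Rpl23, Rpl28, Rps19, Rps28, Rpl13a, Rpl10a, Rpl27 and Rpl3 stayed called lower under all alternatives tried, and Rpl8 and Rpl39l stayed called higher. The brightest values of the arrays also differed between the groups: the highest intensity on an array was 930.5, 751 and 598 with testosterone and 1042, 984 and 977 with placebo, a change of -0.42 on the log2 scale. Among the decile of tested probes that was brightest in the lacrimal gland, 25% of all probes and 35 of 52 members were called lower, and the median change was -0.15 for all probes and -0.59 for the members. Markers of the gland itself moved in the same direction, with 3 of 5 lacrimal probes called lower. So did 2 of 6 fibroblast probes, which summed to between 21.9 and 27.6 with testosterone and between 31.4 and 39.7 with placebo. Of 5 tested B and plasma cell probes 2 were higher and 1 was lower, and the 7 probes on the array summed to between 135 and 154 with testosterone and between 135 and 156 with placebo. Of 7 meibomian marker probes 3 were higher and 1 was lower. Their lacrimal sums were between 30.1 and 52.5 with testosterone and between 13.9 and 15.7 with placebo. Of 4 submandibular marker probes 1 was higher and none lower, and no tested macrophage, T cell or skeletal muscle probe was called. No marker of these lists was at 0 in all pools, and the part of gland makeup in the members' change was not tested.

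**Figure D4:**
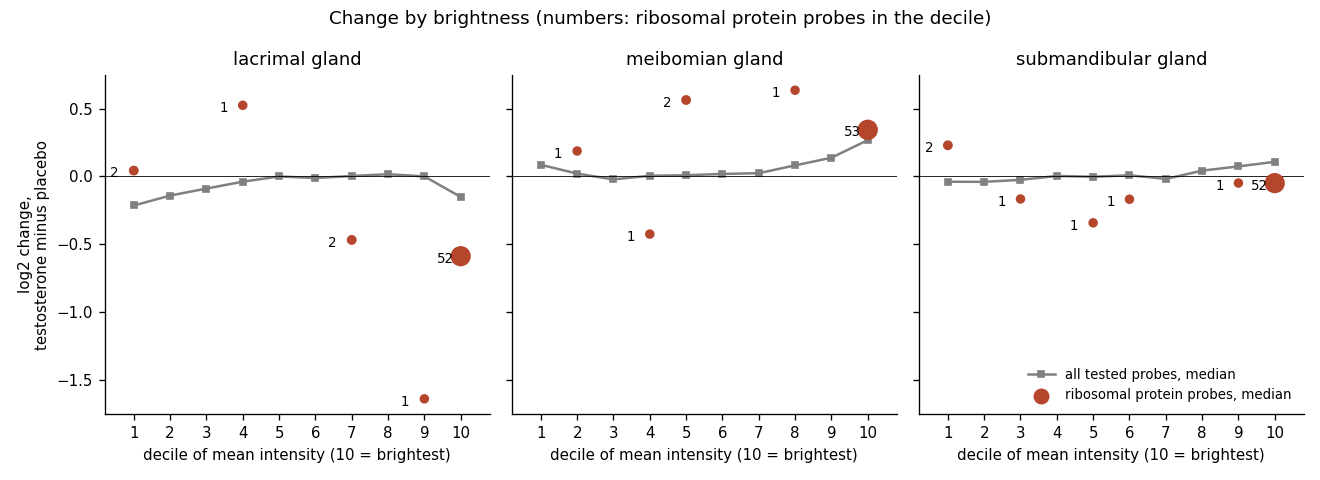
Median log2 change, testosterone minus placebo, by decile of mean intensity in the gland, for all tested probes (grey squares) and for the ribosomal protein probes (red, with their number beside each point). In the brightest decile the lacrimal members lie at -0.59, below all probes at -0.15, and the meibomian members at 0.34, near all probes at 0.27.

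The promoters of members that fell and of members that did not are shown because these genes are known to share start site features. Of the 58 genes, 48 had a promoter in the RefSeq table (GRCm38.p6, from 250 bases before to 50 after the annotated start). Printed here are the 40 bases before and 30 after the start, on the gene's strand, for 4 members that fell in the lacrimal gland, 1 that was not called (Rpl35) and 1 that rose (Rpl39l). Capitals mark CCGGAAG, the core of sites for ETS factors such as GABP (searched on both strands), and 3 pyrimidine stretches searched on the gene's strand, where they can overlap: CTTTCC as well as CTTTTC and the longer CTCTTTC. Every window printed here holds such a stretch. Many windows of other members hold none of the marked letters, among them those of Rpl37a and Rpl23, which also fell.
Rpl26 (chr11:68901526-68901595, plus strand): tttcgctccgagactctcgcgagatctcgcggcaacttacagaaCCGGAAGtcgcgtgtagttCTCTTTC
Rpl27a (chr7:109519155-109519224, plus strand): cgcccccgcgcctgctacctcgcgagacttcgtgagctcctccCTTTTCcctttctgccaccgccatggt
Rps27 (chr3:90213619-90213688, minus strand): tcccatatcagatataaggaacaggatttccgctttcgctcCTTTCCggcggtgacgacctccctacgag
Rpl28 (chr7:4792925-4792994, plus strand): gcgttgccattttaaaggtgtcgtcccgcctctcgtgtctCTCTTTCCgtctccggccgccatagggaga
Rpl35 (chr2:39005102-39005171, minus strand): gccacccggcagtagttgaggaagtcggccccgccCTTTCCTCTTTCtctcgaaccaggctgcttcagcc
Rpl39l (chr16:10170188-10170257, plus strand): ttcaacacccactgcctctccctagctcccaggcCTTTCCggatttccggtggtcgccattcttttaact

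Over the whole promoter window, CCGGAAG stood in 20 of 48 member promoters (41.7%), against 9.93% of the promoters of 27025 genes. CTTTCC stood within 50 bases either side of the start in 17 members (35.4%, against 5.43% of all genes), CTCTTTC in 9 (18.8% against 1.62%) and CTTTTC in 7 (14.6% against 4.32%). TATAA, the core of the TATA box, stood in 9 members within the same distance (18.8% against 7.97%). Members with and without the lacrimal call both held these letters: CCGGAAG was in 8 of 29 members called lower and in 12 of the other 19, and CTTTCC in 10 of 29 and 7 of 19. Rpl26 and Rpl28 fell and Rpl39l rose, and each holds at least one of the pyrimidine stretches. A match describes the sequence only.

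Testosterone against placebo in the meibomian gland asks the same of the gland that makes the lipid layer of tears. A single member, Rpl22l1, was called higher and none lower, where 0.469% of all tested probes were called higher and 0.121% lower (limma, adjusted p under 0.05). At an unadjusted p under 0.05, 27 members were higher and none lower. The share of all tested probes at that threshold is not given, so the 27 cannot be set against it. The median change was 0.34, with an interquartile range from 0.30 to 0.36, against 0.06 over all tested probes, and 55 of 58 members were above 0. In 30 members every testosterone pool lay above every placebo pool and in none below (24% and 11.8% of all probes with all values).

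Rpl22l1, the paralog of the RNA-binding protein Rpl22, had 2.62, 2.03 and 2.18 with testosterone and 1.3, 1.21 and 1.14 with placebo. The lowest testosterone pool was above the highest placebo pool, and it rose by 0.81 ± 0.17 on the log2 scale, or 1.87-fold (limma adjusted p = 0.0476). The call was lost without meibomian testosterone pool A or B, without any 1 of the meibomian placebo pools, and without any 1 of 6 pools of other glands (lacrimal testosterone B, lacrimal placebo B and C, submandibular testosterone C, submandibular placebo B and C), with adjusted p up to 0.244 (limma). The next largest changes were in Rplp1, with 7.39, 6.5 and 6.89 with testosterone and 4.99, 4.18 and 4.06 with placebo, and in Rpl26, with 40.2, 39.9 and 24.1 with testosterone and 24.9, 22.4 and 22.1 with placebo. Rplp1 did not overlap between groups and changed by 0.64 ± 0.18 (adjusted p = 0.142); the 6 meibomian arrays alone called it higher (limma adjusted p = 0.036). Testosterone pool C of Rpl26 was within the placebo range, and its change of 0.55 ± 0.18 was not called (adjusted p = 0.188). Rpl4, Rpl3l and Rpl28 had changes below 0, of -0.49, -0.42 and -0.10.

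The bright members shared 1 pattern of values in this gland. Rpl19 had 218, 176 and 148 with testosterone and 134, 137 and 141 with placebo, and Rpl6 had 217, 178 and 140.1 with testosterone and 135, 139 and 143 with placebo. The highest intensity on the array was 219, 178 and 148 with testosterone and 135, 139 and 143 with placebo, so these probes sat at the top of the array's range in every pool. On the 6 meibomian arrays, 11 members lay within 10% of the array's highest value on all 6, a further 10 on at least 1, and 37 on none. The median change was 0.35 in the first of these classes, 0.34 in the second and 0.33 in the third, and the array's highest value changed by 0.37. Among the brightest decile of meibomian probes the median change was 0.27 over all probes and 0.34 over 53 members. Quantile normalisation took the members' median to 0.01 over all arrays, where Rpl6 was called lower and none higher, and to 0.00 within the gland, where none was called, while weighting arrays by their quality called 48 members higher, among 2661 probes called in all. Testosterone pool A lay above the group mean in 57 of 58 members and pool C in 2 of 58. Without testosterone pool C, Rpl13a, Rpl22l1, Rpl26, Rpl30, Rpl31 and Rpl7 were called higher, and without pool A or pool B none was.

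No stalk or 5S member was called in the meibomian gland. Rplp0 had 133, 112 and 95.4 with testosterone and 90.9, 95 and 92 with placebo, and Rplp2 had 182, 155 and 137 with testosterone and 125, 131 and 134 with placebo. Rpl12 had 207, 152 and 126 with testosterone and 122, 119 and 124 with placebo. In all of them testosterone pool A was the highest of the 6 values, and the groups were apart. Rpl5 had 216, 175 and 145 with testosterone and 130.2, 133 and 142 with placebo, and Rpl11 had 197, 169.9 and 129 with testosterone and 128, 131 and 139 with placebo, apart in Rpl5 and overlapping in Rpl11. Of the paralogs other than Rpl22l1, Rpl39l had 2.13, 1.89 and 1.76 with testosterone and 1.42, 1.61 and 1.49 with placebo, and Rps27l had 93.8, 82.8 and 65.6 with testosterone and 61.4, 61.2 and 63.5 with placebo. Rpl36al had 137, 115 and 95.1 with testosterone and 92.4, 92.9 and 93.4 with placebo, and Rpl3l had 0.536, 0.917 and 1.04 with testosterone and 1.16, 0.955 and 1.34 with placebo. Rpl39l, Rps27l and Rpl36al were higher in every testosterone pool, while Rpl3l overlapped. The members with the largest lacrimal falls had changes above 0 here apart from Rpl28. Rpl27a had 169, 123 and 112 with testosterone and 102, 103 and 115 with placebo, Rps27 had 190.3, 158 and 131 with testosterone and 124, 126 and 124 with placebo, and Rpl37a had 212, 175 and 143 with testosterone and 134, 136 and 141 with placebo. Rpl8, which rose in the lacrimal gland, had 133, 96.7 and 84.5 with testosterone and 82.9, 75.7 and 82.5 with placebo here, a change of 0.35 ± 0.16 (limma adjusted p = 0.331).

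**Figure D5:**
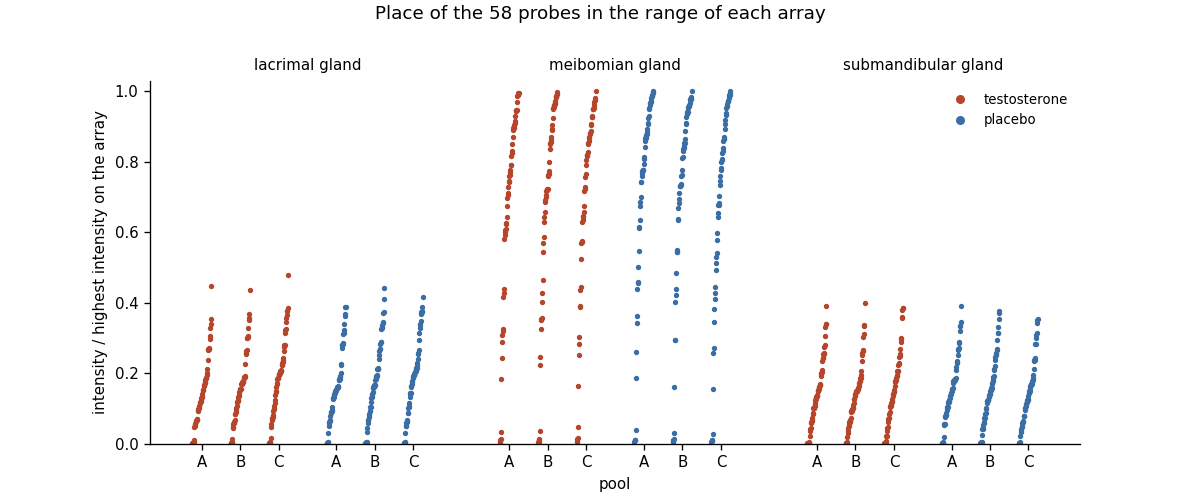
Intensity of the 58 probes divided by the highest intensity on the same array, for each pool, with the points of a pool spread by rank. Lacrimal and submandibular members lie below 0.5 of the array's highest value, and meibomian members reach it on every array.

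Submandibular glands showed no called member in either direction under testosterone (limma, adjusted p under 0.05), where 8.54% of all tested probes were called higher and 5.25% lower. At an unadjusted p under 0.05, 2 members were higher and 3 lower, again without the share of all tested probes at that threshold. No member was called by the submandibular arrays alone, where 3.98% of all tested probes were called higher and 1.5% lower. The median change was -0.06 against 0.01 over all tested probes, with 37 members below 0. Among the 57 members with all values, 6 had every testosterone pool above every placebo pool and 6 below (16.5% and 12.3% of all probes with all values). Rps23, a protein of the decoding centre, had 196, 182 and 184 with testosterone and 216, 248 and 261 with placebo, a change of -0.36 ± 0.14 (adjusted p = 0.0914). In the other direction, Rps20 of the small subunit had 0.369, 0.32 and 0.465 with testosterone and 0.227, 0.231 and 0.14 with placebo, a change of 0.58 ± 0.23 (adjusted p = 0.107), with every pool below the array median. Rpl10a, the protein of the mobile arm at the ribosome's exit site, had 173, 132 and 156 with testosterone and 119, 101 and 117 with placebo, a change of 0.45 ± 0.17 (adjusted p = 0.0992). In all of these the groups were apart, and Rps23 and Rpl10a were called under both quantile normalisations. Rpl26 had 15.1, 12.2 and 13.9 with testosterone and 11.6, 15.5 and 15.9 with placebo, and the groups overlapped. Rplp0 had 2 testosterone values, 182 and 176, since pool C gave none, and 172, 148 and 179 with placebo. The changes furthest from 0 came from single pools: Rpl37 had 0.974, 127 and 144 with testosterone and 163, 166 and 139 with placebo. Rpl36a had 1.17, 159 and 170.0 with testosterone and 206, 173 and 173 with placebo, and Rps10 had 95.6, 79.2 and 3.67 with testosterone and 103, 82.8 and 92.6 with placebo. In each the other testosterone pools were near the placebo values.

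The members that fell furthest in the lacrimal gland were not called in the submandibular gland. Rpl27a had 72.1, 62.6 and 66 with testosterone and 74.5, 56 and 57.3 with placebo, Rps27 had 106, 105 and 115 with testosterone and 93.7, 94.5 and 87.4 with placebo, and Rpl37a had 199, 179.8 and 189 with testosterone and 174, 179 and 176 with placebo. The last of these, like Rps27, had every testosterone pool above every placebo pool, with a change of 0.10 ± 0.14 that was not called (limma adjusted p = 0.682). Rps29 had 149, 117 and 123 with testosterone and 119.8, 102 and 111 with placebo, Rpl23 had 241, 207 and 241 with testosterone and 216, 252 and 263 with placebo, and Rpl28 had 31.7, 29.7 and 29.9 with testosterone and 33.2, 29.6 and 29.8 with placebo, each with overlap. At the stalk, Rplp1 had 2.37, 2.46 and 2.46 with testosterone and 3.04, 2.7 and 2.53 with placebo, Rplp2 had 167, 126 and 132 with testosterone and 152, 114 and 124 with placebo, and Rpl12 had 120.5, 95.4 and 119 with testosterone and 139.9, 124 and 125 with placebo. Rplp1 and Rpl12 were lower in every testosterone pool and Rplp2 overlapped. Rpl5 had 182, 122 and 162 with testosterone and 147, 238 and 229 with placebo, and Rpl11 had 141, 92.2 and 132 with testosterone and 90.3, 159 and 134 with placebo, with overlap in both. Rpl36al had 137, 115 and 146 with testosterone and 112, 106 and 106 with placebo, Rps27l had 74.2, 63.2 and 73 with testosterone and 66.9, 81.7 and 79.6 with placebo, and Rpl3l had 0.332, 0.368 and 0.131 with testosterone and 0.243, 0.315 and 0.357 with placebo. Of these Rpl36al was higher in every testosterone pool and the others overlapped.

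The differences between the glands' testosterone effects were tested directly. The lacrimal effect was lower than the meibomian effect in 40 members (69%) and higher in none, where 10.6% of all tested probes were lower and 6.99% higher (limma, adjusted p under 0.05). The largest differences were in Rpl26 (-2.19 ± 0.25, adjusted p = 8.31e-06), Rplp1 (-1.41 ± 0.26, adjusted p = 0.00109) and Rpl27a (-1.25 ± 0.22, adjusted p = 0.000571). Rps27 and Rpl37a followed with -1.23 and -1.18. The meibomian side of this comparison rests on arrays whose highest value rose with testosterone, and under quantile normalisation of all arrays 8 members were lower and 3 higher, and 12 and 3 within glands. Rpl26, Rpl27a, Rpl37a and Rplp1 stayed called under all alternatives tried, and Rps27 was lost under quantile normalisation of all arrays.

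Against the submandibular effect, the lacrimal effect was lower in 17 members (29.3%) and higher in 2, where 13.8% of all tested probes were lower and 10.3% higher (limma, adjusted p under 0.05). Rpl26 differed by -1.59 ± 0.25 (adjusted p = 0.000179), Rpl10a by -1.15 ± 0.24 (adjusted p = 0.00273) and Rps27 by -1.14 ± 0.19 (adjusted p = 0.000394). Rpl27a and Rps29 differed by -1.04 and -1.02. Rpl10a had 156, 109.6 and 117 with testosterone and 172, 236 and 209.5 with placebo in the lacrimal gland, so it was lower there in every pool and higher in every pool of the submandibular gland. The 2 members with a higher lacrimal effect were Rpl39l (0.69 ± 0.20, adjusted p = 0.0197) and Rpl8 (0.64 ± 0.22, adjusted p = 0.0495). Leaving out 1 pool at a time kept the Rpl8 call in 3 of 18 fits and the Rpl39l call in 16 of 18. Rpl39l had 0.875, 0.74 and 0.564 with testosterone and 0.694, 0.945 and 0.855 with placebo in the submandibular gland, and Rpl8 had 62.4, 69 and 69 with testosterone and 65.1, 68.3 and 71.5 with placebo. Without submandibular placebo pool B, 12 members differed, all with a lower lacrimal effect, and quantile normalisation of all arrays gave 7 lower and 3 higher.

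The meibomian effect was higher than the submandibular effect in 3 members (5.17%) and lower in none, where 3.4% of all tested probes were higher and 3.99% lower (limma, adjusted p under 0.05). The members' share was thus near that of all tested probes. The 3 members were Rpl22l1 (1.15 ± 0.25, adjusted p = 0.00873), Rps23 (0.71 ± 0.19, adjusted p = 0.0338) and Rpl13 (0.67 ± 0.19, adjusted p = 0.0386). Rpl22l1 had 1.8, 1.13 and 1.46 in submandibular testosterone pools and 1.72, 2 and 1.91 in submandibular placebo pools, where the groups overlapped. Rps23 had 207, 169 and 144 with testosterone and 133, 133 and 139 with placebo in the meibomian gland, at the top of those arrays. Rpl13, a large subunit protein, had 179, 152 and 134 with testosterone and 119, 123 and 123 with placebo in the meibomian gland, and 89.5, 103 and 103 with testosterone and 114, 126 and 132 with placebo in the submandibular gland. Rpl22l1 stayed called under all alternatives tried, while Rps23 and Rpl13 were lost under quantile normalisation of all arrays. Without meibomian testosterone pool C, 11 members differed. Rpl22l1 was left as the single call without any 1 of the other meibomian pools, submandibular testosterone pool C, or submandibular placebo pool B or C.

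Among placebo glands, the lacrimal gland held more ribosomal protein signal than the submandibular gland in most members: 46 of 58 (79.3%) were higher and 1 was lower, where 26.2% of all tested probes were higher and 17.8% lower (limma, adjusted p under 0.05). The median difference was 0.79 against 0.11 over all tested probes. Rpl3, a core protein near the peptidyl transferase centre, had 159, 210.4 and 217 in lacrimal placebo pools and 75.5, 56.4 and 58.3 in submandibular placebo pools (1.62 ± 0.16, adjusted p = 5.08e-07). Rpl12 had 327, 330.5 and 330.0 in the lacrimal and 139.9, 124 and 125 in the submandibular gland, a difference of 1.34. Rps18, Rps6 and Rps29 differed by 1.33, 1.21 and 1.17. Rps6 had 146, 164 and 172 in the lacrimal and 67.5, 65 and 75.6 in the submandibular gland. Rps18, a protein of the head of the small subunit, had 166, 163 and 174 in the lacrimal and 80.5, 80.1 and 45.3 in the submandibular gland, where pool C was low. The single member lower in the lacrimal gland was Rpl8, with 51.1, 43.1 and 47.5 in the lacrimal and 65.1, 68.3 and 71.5 in the submandibular gland (-0.53 ± 0.16, adjusted p = 0.0122), a call lost without lacrimal placebo pool B (limma adjusted p = 0.0521). Quantile normalisation of all arrays left 22 members higher and 1 lower.

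Against the meibomian gland, 34 members (58.6%) were higher in the lacrimal gland and 3 (5.17%) were lower, where 38.7% of all tested probes were higher and 29.2% lower (limma, adjusted p under 0.05). The meibomian arrays ended at 135 to 143 in placebo pools, and bright members lay close to that limit. Rplp0 had 281, 404 and 331 in lacrimal placebo pools and 90.9, 95 and 92 in meibomian placebo pools (1.85 ± 0.16, adjusted p = 4.76e-08). Rpl19 had 403, 436 and 405 in the lacrimal and 134, 137 and 141 in the meibomian gland, at the top of the meibomian range. Rpl4, which lines the exit tunnel, had 148, 191 and 189 in the lacrimal and 35, 117 and 58.7 in the meibomian gland, where the pools spread widely. Rpl4 differed by 1.49. Rpl19, Rpl23 and Rpl12 differed by 1.59, 1.47 and 1.44, but lay within 10% of the array's highest value on meibomian arrays (Rpl19 and Rpl23 on all 6), and their differences turned to -0.45, -0.46 and -0.040 under quantile normalisation of all arrays. Higher in the meibomian gland were Rpl3l with 0.398, 0.296 and 0.254 in the lacrimal and 1.16, 0.955 and 1.34 in the meibomian gland (-1.44 ± 0.23, adjusted p = 4.32e-05), and Rpl8 and Rpl39l, at -0.77 and -0.56 (lacrimal minus meibomian). The 8 skeletal muscle probes were also brightest in the meibomian pools, as given above, and their part in the Rpl3l difference was not tested. Among the 37 members with no meibomian value within 10% of the array's highest, 18 were higher and 3 lower in the lacrimal gland. Under quantile normalisation of all arrays 6 members were higher in the lacrimal gland and 36 lower. The shares of all tested probes given above are those of the main fit and are no background for these counts.

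Meibomian and submandibular placebo glands differed in both directions, with 21 members (36.2%) higher and 11 (19%) lower in the meibomian gland, where 30.6% of all tested probes were higher and 36% lower (limma, adjusted p under 0.05). The members' share called higher was near that of all tested probes, and their share called lower was below it. Rpl3l differed by 1.47 and had 0.243, 0.315 and 0.357 in submandibular placebo pools. Rpl28 had 67.5, 67.5 and 61.1 in the meibomian and 33.2, 29.6 and 29.8 in the submandibular gland (1.08 ± 0.13, adjusted p = 1.49e-06). Rpl27, Rps18 and Rps20 were higher by 0.98, 0.96 and 0.81. Rpl27, a large subunit protein, had 85.3, 88.9 and 73.1 in the meibomian and 48.5, 39.1 and 37.6 in the submandibular gland. Rps18 had 128, 130 and 129.5 in meibomian placebo pools. The probe of Rps20 lay below the array median in all pools, with 0.496, 0.454 and 0.478 in the meibomian and 0.227, 0.231 and 0.14 in the submandibular gland. Lower in the meibomian gland were Rplp0, Rps23, Rpl23, Rpl19 and Rpl15, with differences (meibomian minus submandibular) of -0.84, -0.83, -0.83, -0.69 and -0.65. Rplp0 had 90.9, 95 and 92 in the meibomian and 172, 148 and 179 in the submandibular gland, and Rpl23 had 133, 136 and 141 in the meibomian and 216, 252 and 263 in the submandibular gland. Rpl15 had 131, 134 and 137 in the meibomian and 224, 197 and 210 in the submandibular gland, and Rpl19 had 252, 170 and 255 in the submandibular gland. Of these, Rps23, Rpl23, Rpl19 and Rpl15 were within 10% of the highest meibomian value on all 6 arrays, and 9 of the 11 lower members were so on at least 1. Under quantile normalisation of all arrays these 4 turned sign, to 0.48 for Rps23, 0.47 for Rpl23, 0.73 for Rpl19 and 0.56 for Rpl15. Under quantile normalisation of all arrays 48 members were higher and 3 lower in the meibomian gland, and the shares of all tested probes above are again those of the main fit.

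Other genes of the translation apparatus were counted in the same fit, where 14.8% of all tested probes were called lower and 13.3% higher in the lacrimal gland. In the lacrimal gland 2 of 7 elongation factor probes fell and none rose: Eef1a1, which delivers aminoacyl-tRNA, averaged 415 ± 61 with testosterone and 607 ± 30.9 with placebo (SD, n = 3 each; -0.56 ± 0.14, limma adjusted p = 0.00807). Its isoform of muscle and nerve, Eef1a2, averaged 0.506 ± 0.158 with testosterone and 1.69 ± 0.221 with placebo, a change of -1.47. Of 23 initiation factor probes 5 fell and 1 rose; the poly(A)-binding protein Pabpc1, whose messenger RNA carries the same kind of 5′ pyrimidine tract, averaged 90.6 ± 7.98 with testosterone and 208 ± 25.7 with placebo, a change of -1.20 ± 0.12 (adjusted p = 8.63e-07). Eif3f fell by 0.62 and Eif2b4 rose by 0.43. Eif4ebp2, which fell by 0.92, is counted in this list but encodes a binding protein of Eif4e, not an initiation factor. Of 5 other transcripts with such a tract 1 fell, Fau, which encodes a ribosomal protein fused to a ubiquitin-like domain, at 31.9 ± 2.64 with testosterone and 50.7 ± 0.881 with placebo. The changes of Npm1, Tpt1, Naca and Hnrnpa1 were -0.38, -0.40, -0.27 and 0.01 and were not called.

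In the lacrimal gland 8 of 41 ribosome assembly probes fell and 2 rose, with a median of -0.24, near the share of all tested probes called lower; Ddx21, Rrp1b and Nop10 fell by 1.17, 0.66 and 0.66, and Exosc9 and Exosc10 rose by 0.55 and 0.42. Of 7 RNA polymerase I probes 2 fell: Taf1c, a subunit of its promoter factor, averaged 1.57 ± 0.331 with testosterone and 6.92 ± 1.78 with placebo (-2.02 ± 0.18, limma adjusted p = 1.79e-07), and Polr1e fell by 0.88. Among 13 probes for growth control of ribosome synthesis 2 fell and none rose, near the share of all tested probes called lower. These were Pdpk1 and Gabpa, which fell by 1.02 and 0.54, and Myc and Mtor were not called. None of 11 tRNA synthetase probes was called. Of 47 mitochondrial ribosomal protein probes 8 fell and 1 rose, with a median of -0.12, also near that share; Mrps31, Mrpl37 and Mrps6 fell by 1.63, 0.85 and 0.71, and Mrps18a rose by 1.43. In the meibomian gland none of these probes was called. In the submandibular gland 5.25% of all tested probes were lower and 8.54% higher. There 2 of 23 initiation factor probes fell, Eif3f and Pabpc1, by 0.84 and 0.39. Of 41 assembly probes 3 fell, Nop56, Rrs1 and Lyar, by 0.79, 0.62 and 0.42, and of 7 RNA polymerase I probes 1 fell, Taf1c, by 0.65. Of 47 mitochondrial ribosomal protein probes 4 fell there, among them Mrps6, Mrpl4 and Mrpl45 by 0.77, 0.72 and 0.69, and Mrpl37 rose by 0.46. With so few calls, these counts were near the share of all tested probes called lower.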

How the data were processed

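RNA of 18 pools was measured on 1-colour arrays, 3 pools for each of 3 glands and 2 treatments. What the authors deposited is an intensity for each probe, linear and scaled per array. Neither the kind of array nor its background and scaling steps are stated in the sources used here. Entries of -1 were taken as no value. Remaining negatives, none under -0.128, became 0, and log2(intensity + 0.174) was used, with percentile 10 of the positive intensities as offset. A probe entered the test with 2 or more values per group and if on 3 or more arrays it exceeded percentile 40 of the array. limma 3.58.1 (R 4.3.3) fitted a mean per group over all 18 arrays (12 residual degrees of freedom, eBayes with a trend), with Benjamini-Hochberg adjustment over all 7463 tested probes at 0.05. The labels call each sample a separate pool, and p-values measure only the spread between these pools, whose number limits the precision. Within groups, rank correlations (Spearman) of 0.904 to 0.992 were found. The scripts were tested on simulated data.

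Genes were named from GEO's platform annotation where a probe had 1 symbol (8983 probes). Pool values are given for the 8 largest called rises and falls per gland, the 5 largest called differences of effect per pair of glands, the 5 largest placebo differences in each direction, and the stalk, 5S and paralog members; of the companion lists, up to 3 called probes per direction and gland are named. Other members with pool values (among them Rpl35, Rps6, Rps20, Rpl4, Rpl10, Rpl14, Rpl37 and Rpl6) were picked after their values were seen. The members, lists and tests were chosen with earlier results of these data known. Promoters are RefSeq's. Alternatives covered the arrays fitted, offset, filter, scaling, variance model, array weights, the replicate block, the -1 code, probes near the top of the range, and each array left out.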

Additional observations from a re-analysis of the deposited data

Results flagged for a closer look

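The results given here are the differences of testosterone effects between glands that passed their own test (limma, Benjamini-Hochberg adjusted p under 0.05), taking up to 5 of the largest per pair of glands. Between the lacrimal and the meibomian gland these were Rpl26 at -2.19, Rplp1 at -1.41, Rpl27a at -1.25, Rps27 at -1.23 and Rpl37a at -1.18 on the log2 scale. Between the lacrimal and the submandibular gland they were Rpl26 at -1.59, Rpl10a at -1.15, Rps27 at -1.14, Rpl27a at -1.04 and Rps29 at -1.02. Between the meibomian and the submandibular gland they were Rpl22l1 at 1.15, Rps23 at 0.71 and Rpl13 at 0.67. These made 5.17% of the members, near the 3.4% of all tested probes called higher. Rps23 was lost under 10 of 29 alternatives and Rpl13 under 12 of 29. A negative value means a lower testosterone effect in the gland named first.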

How the results depend on the processing

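Calls in the lacrimal gland numbered 39 and stayed between 29 and 42 when any 1 array was left out; quantile normalisation of all arrays gave 22, and leaving out the members above 0.8 of any array's highest value gave 16 of the 24 members left. Of the lacrimal calls 16 were kept under all their alternatives. Over all comparisons, the called members gave 2347 values under alternatives, of which 2183 kept direction and call, 157 kept the direction without the call and 7 turned sign. In the meibomian gland the single call became 2 with the gland alone, 48 with array weights, 0 without the filter, with quantile normalisation within glands and without the eBayes trend, and 0 to 6 with 1 array left out; quantile normalisation of all arrays gave 1 call, of Rpl6 and lower. In the submandibular gland quantile normalisation gave 2 calls over all arrays (Rpl10a higher, Rps23 lower) and 3 within glands (also Rpl30, lower), and leaving out 1 array 0 to 1.

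Lacrimal minus meibomian differences numbered 40, 11 under quantile normalisation of all arrays, and 15 both within glands and without the brightest members. Lacrimal minus submandibular differences numbered 19, 10 under quantile normalisation of all arrays, 9 without the brightest members, and 12 to 24 with 1 array left out. Meibomian minus submandibular differences numbered 3, 15 with array weights, 1 without the brightest members, and 1 to 11 with 1 array left out. Placebo differences without the brightest members numbered 14 between lacrimal and meibomian, 21 between lacrimal and submandibular and 17 between meibomian and submandibular glands, and quantile normalisation of all arrays gave 23 and 51 for the last 2 pairs. That normalisation turned the sign of lacrimal minus meibomian placebo differences in Rpl12 (-0.040), Rpl19 (-0.45) and Rpl23 (-0.46), and of meibomian minus submandibular ones in Rpl19 (0.73), Rpl23 (0.47), Rps23 (0.48) and Rpl15 (0.56). The cause was not tested; counts without the brightest members are lower by construction.

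Median changes moved under quantile normalisation to -0.29 over all arrays and -0.32 within glands in the lacrimal, 0.0057 and 0.00098 in the meibomian, and -0.10 and -0.11 in the submandibular gland, where array weights gave -0.11 and leaving out 1 array -0.11 to -0.0061. With the 53 members that had all values and no pool under 10% of its group's highest, a rule chosen after seeing the data, the share of the array sum differed by -1.89 percentage points for lacrimal glands and -0.56 for submandibular ones. Within each gland, deviations of same-letter testosterone and placebo pools correlated between -0.102 and 0.134. Whether same-letter pools of different glands came from the same animals was not checked, and the fit took all pools as independent. With the letter as a replicate block, 38 lacrimal, 1 meibomian and 0 submandibular members were called. Probes near the top of the meibomian range and single dim spots limit what these arrays resolve.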
